A study of Mus musculus with 6 samples.

Results

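1700034P13Rik and BC030307 are a pair of mouse transcripts that the deposited table lists by a cDNA clone number, and both were chosen by their read counts in this series, as genes with such a name whose fitted level in Ronin knockout retina was over 10 times that in control retina. They make up 2 of the 23441 distinct genes in the deposited table and 2 of the 14609 genes with enough reads to test. 1700034P13Rik had enough reads through its knockout libraries alone, since its reads in every control lay under the minimum count of 10. RNA was taken from mouse retina at embryonic day 14.5, poly-A selected and sequenced. There were 3 libraries of a conditional knockout (CKO) of genotype Chx10-Cre::GFP +/tg with Ronin flox/flox, and 3 control libraries of genotype Ronin flox/flox. Both groups carry the floxed alleles of Ronin (Thap11) and the same mixed background (C57/B6, SJL/B6, 129/Sv, FVB), while the Cre transgene is carried by the CKO group and not by the controls. The Chx10 sequence that drives Cre is known for its activity in retinal progenitor cells, and the dissected tissue can also hold cells in which it is not active. Nothing in the labels ties a replicate to an animal, a litter or a pool, and p-values given for other genes therefore reflect only how much these samples varied, a spread that may be technical.

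Ronin is a zinc finger transcription factor with a THAP domain, first studied in embryonic stem cells, where it works with the host cell factor HCF-1 at promoters that hold a conserved element beginning ACTACA. Long noncoding RNAs are spliced and often polyadenylated transcripts without a long reading frame. Many start next to a coding gene and run away from it on the opposite strand, and many still carry the name of the clone in which they were found. RIKEN clone numbers like that of 1700034P13Rik come from a sequencing project on full-length mouse cDNAs, and its prefix marks a library of adult testis. A BC number such as BC030307 is the accession-style name of a cDNA clone with no other symbol. No function is given here for either transcript.

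1700034P13Rik is annotated as an antisense gene in GENCODE release M21 (GRCm38, a later build than the mm9 named for the counts) and as a long noncoding RNA in RefSeq. It lies on the plus strand of chromosome 1 with its start against that of Vcpip1, a coding gene on the minus strand for a deubiquitinating enzyme that acts with the ATPase VCP in Golgi assembly. GENCODE lists 7 transcripts of it, of which 2 start inside the first exon of Vcpip1 and 5 start outside Vcpip1. Transcript 1700034P13Rik-202 overlaps the exons of Vcpip1 by 735 of its 1996 bases, 1700034P13Rik-201 overlaps them by 427 of 1343 bases, and the other 5 transcripts do not overlap them. Over all of its exons, 735 of 3101 bases (23.7%) are antisense to Vcpip1 exons. The nearest transcript that starts outside, 1700034P13Rik-205, has 4 exons and 661 bases, and 98 bases separate its start from that of Vcpip1. BC030307 had no entry of that symbol in GENCODE M21 or in the RefSeq gene table, so its position and neighbours are not given here.

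**Figure D1:**
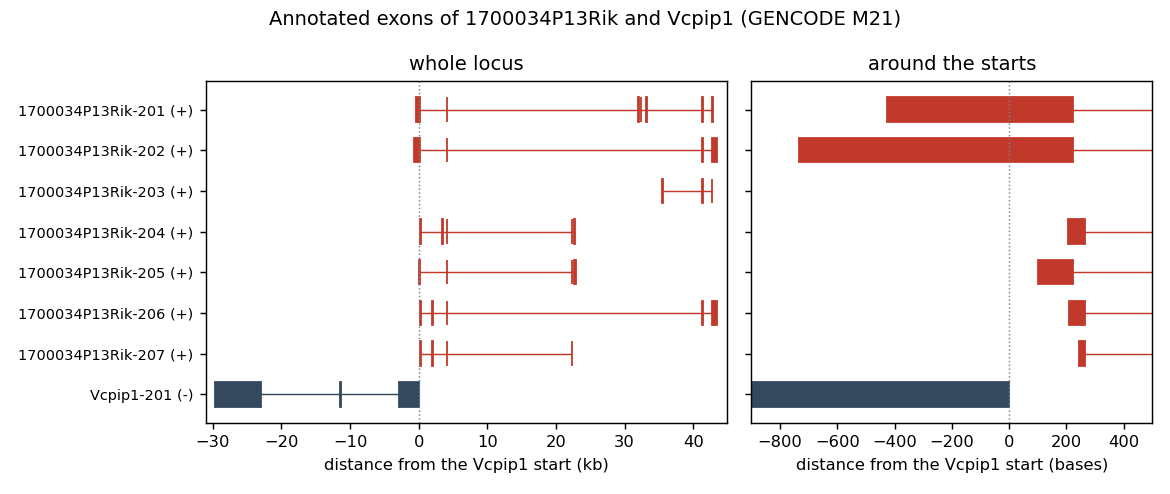
Exons (boxes) of the 7 GENCODE transcripts of 1700034P13Rik (plus strand, red) and of Vcpip1 (minus strand, dark), by distance from the Vcpip1 start in kb (left) and in bases (right). 1700034P13Rik-201 and 1700034P13Rik-202 begin inside the first exon of Vcpip1, while 1700034P13Rik-205 begins 99 bases beyond its start.

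The targeted gene was low in each CKO library. Thap11 had 323, 292 and 156 reads in CKO replicates 1 to 3, against 1739, 1880 and 1880 reads in control replicates 1 to 3. Its log2 fold change, CKO minus control, was -2.96 ± 0.24 (SE; edgeR quasi-likelihood test, adjusted p = 0.00425). The CKO libraries held between 23721052 and 28504391 counted reads and the controls between 24903912 and 26280045. Control replicate 2 stood apart, with Pearson correlations of log2 CPM (reads per 1000000 of the TMM-scaled library) of 0.954 to control replicate 1 and 0.973 to control replicate 3, where CKO libraries correlated at 0.985 to 0.992 with each other. The controls did not group by genotype: control replicate 3 was closer to CKO replicates 2 (0.9882) and 3 (0.9827) than to control replicate 1 (0.9805) or 2. The labelled tissue showed its markers: all 14 retinal progenitor genes listed (Ccnd1, a D cyclin, at 3371 to 3912 CPM in the CKO and 3943 to 4305 CPM in controls) and all 12 retinal neuron genes (Tubb3, a neuronal tubulin, at 1018 to 1073 and 890 to 1086 CPM) had enough reads to test. Over both lists 0 genes passed edgeR's test over all genes, beside 0.897% of all tested genes. In these lists 1 gene had an unadjusted p under 0.05 and DESeq2 called 0.

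1700034P13Rik was close to undetected in control retina and counted at a similar level in each CKO library. It had 233, 271 and 224 reads in CKO replicates 1 to 3, against 5, 2 and 3 reads in control replicates 1 to 3. In CPM that was 8.07, 10.1 and 9.16 in the CKO, against 0.196, 0.0872 and 0.114 in the controls. Every CKO library was thus far above every control, and the lowest CKO level was 41.1 times the highest control level. The means were 9.12 ± 1.03 CPM in the CKO and 0.133 ± 0.0568 CPM in the controls (SD, n = 3 per group).

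The control side of that difference rests on 10 reads in 3 libraries. Pooled over libraries, 728 CKO reads against 10 control reads gave a ratio of 67.8, with an exact 95% interval of 36.7 to 142 that covers counting error only. The fitted log2 fold change was 6.04 ± 0.31, which is given as a description because the gene was chosen for it. The Poisson intervals of the control libraries all overlapped, from 0.0106 to 0.315 CPM in replicate 2 up to 0.0637 to 0.458 CPM in replicate 1, so no order among the controls can be read. In the CKO, the intervals were 7.06 to 9.17 CPM in replicate 1, 8.95 to 11.4 CPM in replicate 2 and 8.0 to 10.4 CPM in replicate 3, and these overlapped too.

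BC030307 was counted in every control library and stood higher in every CKO library. It had 1321, 1751 and 1498 reads in CKO replicates 1 to 3, against 107, 171 and 131 reads in control replicates 1 to 3. In CPM that was 45.7, 65.4 and 61.3 in the CKO, against 4.2, 7.46 and 4.99 in the controls. The groups did not overlap, and the lowest CKO level was 6.13 times the highest control level. The means were 57.5 ± 10.4 CPM in the CKO and 5.55 ± 1.70 CPM in the controls (SD, n = 3 per group). Pooled reads, 4570 in the CKO and 409 in the controls, gave a ratio of 10.4 (exact 95% interval 9.41 to 11.5, counting error only), and the fitted log2 fold change was 3.37 ± 0.26, again with no test.

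BC030307 had enough reads to set its libraries apart inside each group. In the CKO, replicate 1 (Poisson interval 43.3 to 48.3 CPM) lay below replicate 3 (58.2 to 64.4) and replicate 2 (62.3 to 68.5), and the intervals of replicates 2 and 3 overlapped. In the controls, replicate 2 (6.38 to 8.67 CPM) lay above replicate 3 (4.17 to 5.92) and replicate 1 (3.44 to 5.08), whose intervals overlapped. The chi-square per degree of freedom of the reads was 52.5 in the CKO and 12.6 in the controls for BC030307, and 3.23 in the CKO and 0.595 in the controls for 1700034P13Rik. A value near 1 is what counting error alone gives, and the 10 control reads of 1700034P13Rik are too few for a larger spread to show in this measure. The SD of log2 CPM was 0.274 in the CKO and 0.419 in the controls for BC030307, and 0.162 in the CKO and 0.376 in the controls for 1700034P13Rik, where the median tested gene had 0.098 in the CKO and 0.326 in the controls.

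**Figure D2:**
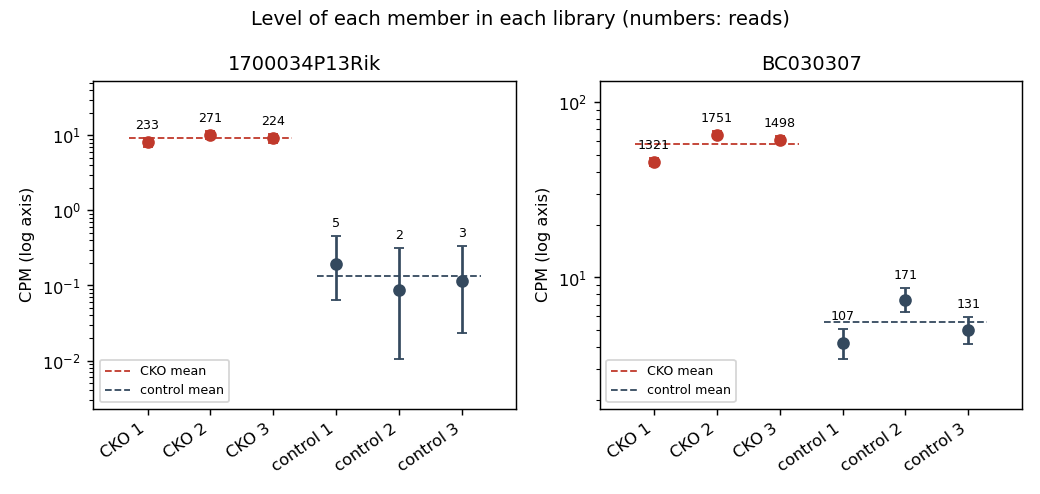
CPM (log axis) of 1700034P13Rik and BC030307 in each library, with 95% Poisson intervals, the number of reads above each point and dashed lines at the group means. The CKO libraries sit between 8.07 and 10.1 CPM for 1700034P13Rik and between 45.7 and 65.4 CPM for BC030307, all above the controls.

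Both transcripts had their lowest CKO level in replicate 1 and their highest in replicate 2, although the intervals of 1700034P13Rik overlapped and those of BC030307 set only replicate 1 apart. The Thap11 left in the CKO did not follow that order, at 11.2, 10.9 and 6.38 CPM in CKO replicates 1 to 3. The whole retina was sampled, so fewer cells of a type and less RNA per cell cannot be told apart.

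Both members were chosen by a fitted rise over 10-fold, so their place among such genes was set by that choice. Of the 14609 genes tested, 24 (0.164%) had a fitted rise over 10-fold, and 838 (5.74%) had all CKO libraries above all controls, as both members did. Since both were chosen on this contrast, and 1700034P13Rik was testable through its CKO reads alone, these shares are given beside them with no reading. At an adjusted p under 0.05, 28 genes (0.192%) were higher and 103 (0.705%) lower in the CKO by edgeR, 131 (0.897%) in all. Single libraries moved these counts, to 72 higher and 147 lower without control replicate 2 and to 6 higher and 10 lower without CKO replicate 3. At an unadjusted p under 0.05, edgeR had 325 higher and 637 lower with every library in the fit. By size of the fitted rise, 1700034P13Rik was in place 18 and BC030307 in place 24, the last over 10-fold. The next genes with a clone or model-number name lay under the 10-fold that defined the set. They were A730090N16Rik at 26, 16 and 22 reads in the CKO, against 5, 0 and 6 in controls (5.33-fold fitted), Gm5607 at 118, 27 and 7 reads in the CKO, against 16, 5 and 6 in controls (4.98-fold), and 4933405L10Rik at 19, 28 and 27 reads in the CKO, against 0, 4 and 10 in controls (4.89-fold).

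Most of the other genes over 10-fold were lens genes, and their CKO libraries lay further apart than those of both members. Of the 24 genes, 19 were in the lens list (crystallins, lens membrane and filament proteins), and 3 more were Capn3, a calpain protease gene, and the alkaline phosphatase genes Akp3 and Alppl2. The lens genes were highest in CKO replicate 1 in 19 of 19 cases, and their highest CKO level was 18.8 to 1061 times their lowest. For 1700034P13Rik that ratio was 1.25 and for BC030307 it was 1.43, and CKO replicate 1 was the lowest in both. Of the other 3 genes, Alppl2 and Akp3 had ratios of 1.36 and 1.40, and Capn3, at 348, 4.85 and 20.1 CPM in CKO replicates 1 to 3, had a ratio of 71.7.

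The lens list as a whole, with 21 of 21 genes in the table and 19 tested, summed to 11545, 83.3 and 844 CPM in CKO replicates 1 to 3, against 23.6, 14.5 and 16.4 CPM in control replicates 1 to 3. None of its defining genes was at 0 in all libraries, and 1 stayed under 1 CPM in every library. Cryaa, which encodes alpha-A crystallin, was at 3239, 34.6 and 175 CPM in the CKO, against 3.97, 1.05 and 2.86 CPM in controls. Without CKO replicate 1 the fitted log2 fold change was 6.12 for 1700034P13Rik and 3.51 for BC030307, with CKO replicate 3 and its lens reads still in the fit. The part of lens RNA in the levels of both members was not tested. Of the lens genes tested, 0 passed edgeR's test, beside 0.897% of all tested genes. An unadjusted p under 0.05 was found for 19, and DESeq2 called 18.

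**Figure D3:**
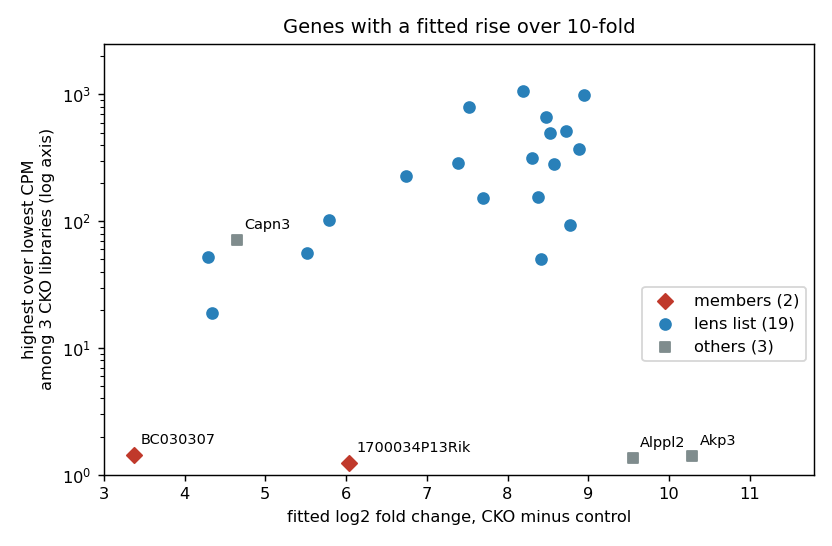
Each of the 24 genes with a fitted rise over 10-fold, by its fitted log2 fold change (CKO minus control) and the ratio of its highest to its lowest CPM among the 3 CKO libraries (log axis). Both members lie near a ratio of 1, at 1.25 and 1.43, while the 19 lens list genes lie between 18.8 and 1061; the x values of Akp3 and Alppl2, which had 0 control reads, depend on the prior count of the fit.

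The genes next to 1700034P13Rik, which played no part in its choice, were then tested. None of the 7 tested neighbours among the nearest 5 counted genes on each side passed edgeR's test, against 0.897% of all tested genes, with 1 at an unadjusted p under 0.05 and 0 called by DESeq2 or limma-voom. Their log2 fold changes lay between -0.34 and 0.36, with a median of -0.05. The other 3 of the 10 (2610203C22Rik, Snord87 and Ppp1r42) had too few reads to test, at 1 to 19 reads in a library.

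Vcpip1, whose start faces that of 1700034P13Rik, had 1860, 1796 and 1522 reads in CKO replicates 1 to 3, against 1782, 1290 and 1950 reads in control replicates 1 to 3. Its level was 64.6 ± 2.41 CPM in the CKO and 66.8 ± 9.38 CPM in the controls (SD, n = 3 per group), and the ranges overlapped. The log2 fold change was -0.05 ± 0.15 (edgeR adjusted p = 0.970), and it was 0.02 with library sizes alone as the scaling. The sources used here do not say whether reads were counted by strand, so reads from the shared bases of Vcpip1 and 1700034P13Rik cannot be told apart.

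Mybl1, a transcription factor gene of the MYB family with a known role in male meiosis, lies beyond Vcpip1. It was at 96.6, 135 and 113 CPM in the CKO, against 94.9, 127 and 151 CPM in the controls (log2 fold change -0.11 ± 0.20, edgeR adjusted p = 0.958). The third gene on that side, 3110035E14Rik (Vxn), was at 42.9, 39.2 and 35.6 CPM in the CKO, against 51.7, 45.8 and 51.8 CPM in the controls. Its groups did not overlap, but at -0.34 ± 0.14 it did not pass over all genes (edgeR adjusted p = 0.709). Adhfe1, further out, was at 0.719 ± 0.225 CPM in the CKO and 0.793 ± 0.310 CPM in the controls.

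Downstream of 1700034P13Rik the nearest counted gene is Sgk3, a serum and glucocorticoid regulated kinase, which begins 6182 bases past the end of the GENCODE gene. It was at 8.34, 9.15 and 8.30 CPM in the CKO, against 12.1, 6.24 and 8.38 CPM in the controls, with overlapping groups (log2 fold change -0.05 ± 0.25, edgeR adjusted p = 0.986; 0.01 with library sizes alone). Sgk3 lies on the side towards which 1700034P13Rik is transcribed. Next come Mcmdc2, a meiotic gene of the MCM family, at 0.554, 0 and 1.02 CPM in the CKO and 0.393, 0.523 and 0.305 CPM in controls, and the noncoding Snhg6, at 10.2 ± 2.61 CPM in the CKO and 10.2 ± 4.06 CPM in controls.

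**Figure D4:**
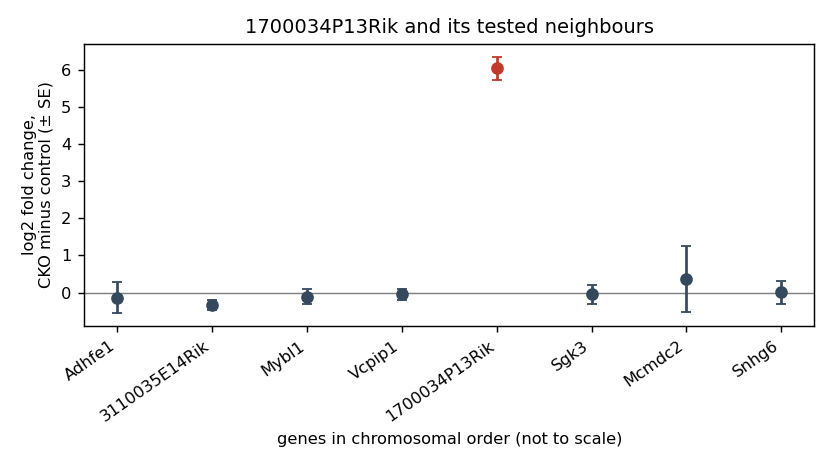
Log2 fold change (CKO minus control, ± SE) of 1700034P13Rik and its 7 tested neighbours in chromosomal order. The neighbours lie between -0.34 and 0.36, and 1700034P13Rik at 6.04.

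The profiles most like each member over the 6 libraries were found by the root-mean-square difference of centred log2 CPM. All genes compared share the same 6 libraries, and the members were chosen for their difference between the genotypes, which these profiles hold. Closest to 1700034P13Rik were Alppl2 (difference 0.240, Pearson r = 0.996 over 6 libraries), Akp3 (0.474, r = 0.996), BC030307 (1.14, r = 0.975), Abcd4 (1.54, r = 0.945) and Park2 (1.56, r = 0.983). Closest to BC030307 were Abcd4 (0.418, r = 0.992), Park2 (0.510, r = 0.994), Vmn2r29 (0.645, r = 0.997), Xrra1 (0.728, r = 0.989) and 1700029J07Rik (0.798, r = 0.966). These correlations are descriptions and were not tested. Alppl2 and Akp3 had 0 control reads, so their differences from 1700034P13Rik depend on the prior count of 2. With a prior count of 0.5 these differences were 0.848 and 1.2.

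Alppl2 had 88, 99 and 101 reads in the CKO, against 0 in each control, and Akp3, an intestinal alkaline phosphatase gene, had 146, 161 and 173 reads, against 0 in each control. Both were thus without reads in the controls, where 1700034P13Rik had 2 to 5. Reads of Akp3 and Alppl2 can be divided between the copies, and those of Vmn2r29, a vomeronasal receptor gene, among the members of its large family.

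Abcd4, a transporter of the cobalamin pathway in lysosomes, was at 106, 118 and 120 CPM in the CKO, against 12.6, 28.7 and 18.3 CPM in the controls. Like BC030307, for likeness to which it was picked, it had its lowest control level in replicate 1 and its highest in replicate 2. Park2, which encodes the ubiquitin ligase parkin, was at 10.1 CPM in all 3 CKO libraries, against 1.65, 2.22 and 1.60 CPM in the controls. Vmn2r29 was at 6.12 ± 0.297 CPM in the CKO and 1.35 ± 0.258 CPM in the controls, and Xrra1 at 3.79 ± 0.564 CPM in the CKO and 0.890 ± 0.138 CPM in the controls (SD, n = 3 per group).

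**Figure D5:**
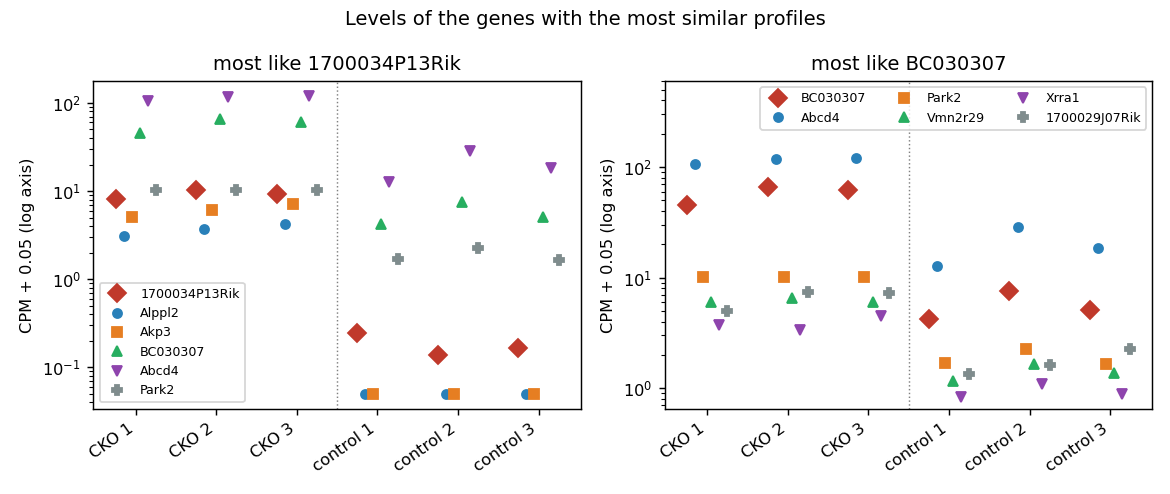
CPM plus 0.05 (log axis) in each library of 1700034P13Rik (left) and BC030307 (right), each with the 5 genes of the most similar centred profile. All genes shown are higher in the 3 CKO libraries than in the 3 controls; Alppl2 and Akp3 had 0 reads in each control and are drawn at 0.05.

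Other transcripts with clone or model-number names were examined as a class. Of 3369 such names in the table besides both members, 1111 had enough reads to test. By edgeR 4 of them (0.360%) were higher and 4 (0.360%) lower in the CKO, beside 0.192% and 0.705% of all tested genes, and their median log2 fold change was 0.01, where that of all tested genes was -0.03. Those with the clone prefix of 1700034P13Rik numbered 75 tested, of which edgeR called 1 (1.33%) higher and 0 lower. In these 75, 10 had an unadjusted p under 0.05, DESeq2 called 2 and limma-voom 1. Those with a BC number numbered 50 tested, of which edgeR called 0 in either direction. In these 50, 2 had an unadjusted p under 0.05, and DESeq2 and limma-voom called 0. These subclasses were singled out after values were seen.

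The 4 that rose were 2500004C02Rik, 1700029J07Rik, 4930529M08Rik and Gm5113. 2500004C02Rik stood at 27.8, 35 and 33.9 CPM in the CKO, against 8.72, 5.28 and 10.2 CPM in controls (log2 fold change 2.0 ± 0.25, edgeR adjusted p = 0.0153). 1700029J07Rik stood at 4.95, 7.35 and 7.16 CPM in the CKO, against 1.3, 1.57 and 2.21 CPM in controls (1.93 ± 0.28, edgeR adjusted p = 0.0250). All 4 had every CKO library above every control, which follows closely from their being called higher. Of the 1111 tested in this class 74 (6.66%) were separated in this way, beside 5.74% of all tested genes. The lowest CKO level was in replicate 1 and the highest in replicate 2 for 2500004C02Rik and 1700029J07Rik. For 4930529M08Rik the highest was in CKO replicate 3, at 2.41 CPM, and for Gm5113 in CKO replicate 1, at 30.5 CPM. 4930529M08Rik, at 2.14 ± 0.272 CPM in the CKO and 0.639 ± 0.106 CPM in controls, had an edgeR adjusted p = 0.0351, and Gm5113, at 28.7 ± 1.81 CPM in the CKO and 10.7 ± 1.56 CPM in controls, had 0.0107 (SD, n = 3 per group).

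The 4 that fell were B230118H07Rik, 1110004F10Rik, AI464131 and 4933404O12Rik. B230118H07Rik fell the most, to 10.8, 11.3 and 7.03 CPM in the CKO, against 54.9, 47.1 and 38.5 CPM in controls (log2 fold change -2.27 ± 0.23, edgeR adjusted p = 0.00722). The others fell less: 1110004F10Rik stood at 30.0 ± 4.16 CPM in the CKO and 88.6 ± 31.1 CPM in controls, AI464131 at 6.31 ± 0.578 and 14.9 ± 1.58 CPM, and 4933404O12Rik at 18.6 ± 1.54 and 39.3 ± 3.94 CPM (SD, n = 3 per group). Their edgeR adjusted p values were 0.0485, 0.0205 and 0.0205. The calls depended on single libraries: higher calls numbered 0 without CKO replicate 1, 2 or 3 or control replicate 3 (22, 20, 19 and 53 at an unadjusted p under 0.05) and 2 without control replicate 1, and lower calls numbered 1 without CKO replicate 1, 2 or 3 or control replicate 3 and 8 without control replicate 2.

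The 8 called genes were, like 1700034P13Rik, set beside the nearest counted gene on each side. Of these 16 flanking genes 13 were tested, and 0 passed edgeR's test, beside 0.897% of all tested genes, with 2 at an unadjusted p under 0.05 and 0 by DESeq2. 2500004C02Rik lies between Kif3b, a kinesin gene, at a log2 fold change of 0.03, and Asxl1, a chromatin gene, at -0.53. 4930529M08Rik lies between Crnkl1, a splicing factor gene, with an edgeR adjusted p = 0.997, and Insm1, a neuroendocrine transcription factor gene, at a log2 fold change of 0.35.

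Among long noncoding RNAs with established names, no gene passed the test. The table held 26 of them, of which 24 were tested and 0 passed over all genes by edgeR, beside 0.897% of all tested genes, with 4 at an unadjusted p under 0.05, 10 of 24 at a positive log2 fold change and a median of -0.06. DESeq2 called 3 of them. Over all 14609 tested genes, 325 were higher and 637 lower at an unadjusted edgeR p under 0.05, and DESeq2 called 117 higher and 209 lower. Miat, the one with the most reads, was at 1025, 2241 and 2154 CPM in the CKO, against 390, 4303 and 2534 CPM in the controls, so that the controls spanned the CKO values (log2 fold change -0.42 ± 0.71, edgeR adjusted p = 0.957; 0.07 by limma-voom).

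Germline genes were followed because the clone library of 1700034P13Rik was made from testis. All 34 listed genes were in the table, 22 stayed under 1 CPM in every library and 3 had 0 reads in all. Of the 15 tested, 0 passed over all genes by edgeR, beside 0.897% of all tested genes, 5 had a positive log2 fold change and the median was -0.12. An unadjusted p under 0.05 was found for 1, and DESeq2 called 1. Summed over the list the level was 33.7, 47.7 and 43.9 CPM in the CKO, against 36.0, 46.2 and 46.9 CPM in the controls. Stag3, a meiotic cohesin subunit and the one with the most reads, was at 7.41, 13.7 and 12.7 CPM in the CKO, against 2.75, 9.07 and 8.15 CPM in the controls (log2 fold change 0.76 ± 0.44, edgeR adjusted p = 0.906).

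The blood vessel sum, made up mostly of Kdr, was lower in every CKO library than in every control. The share of all tested genes with that separation is not given here. The mesenchyme, pigment epithelium, erythroid and microglia sums overlapped between the genotypes. Blood vessel genes summed to 258 to 284 CPM in the CKO and 302 to 361 CPM in controls (Kdr, a VEGF receptor, at 237 ± 5.78 and 283 ± 31.6 CPM). Kdr alone thus made up most of this sum. Of the 13 blood vessel genes tested, 1 had a positive log2 fold change, and the median was -0.56. An unadjusted edgeR p under 0.05 was found for 3, and DESeq2 called 1. Periocular mesenchyme genes summed to 52.5 to 74.5 CPM in the CKO and 71.8 to 185 CPM in controls (Col6a1, a collagen, at 30.5 ± 5.38 and 60.2 ± 44.6 CPM). Of the 5 tested, 2 had a positive log2 fold change, the median was -0.40 and 1 had an unadjusted edgeR p under 0.05. Pigment epithelium genes summed to 34.7 to 42.2 CPM in the CKO and 40.8 to 78.8 CPM in controls (Trpm1, a cation channel gene of pigment cells, at 18.1 to 19.6 and 19.8 to 42.5 CPM). Of the 6 tested, 0 had a positive log2 fold change, the median was -0.60 and 2 had an unadjusted edgeR p under 0.05.

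Erythroid genes summed to 4.07 to 13 CPM in the CKO and 6.36 to 15.7 CPM in controls (Alas2, of haem synthesis, at 2.79 ± 0.776 and 5.15 ± 0.841 CPM), and 3 of 8 had 0 reads in all libraries. Of the 3 tested, 1 had a positive log2 fold change, the median was -0.52 and 1 had an unadjusted edgeR p under 0.05. Microglia genes summed to 44.5 to 56.5 CPM in the CKO and 42.4 to 52.8 CPM in controls (Csf1r at 15.2 ± 1.22 and 15.5 ± 1.01 CPM). Of the 11 tested, 6 had a positive log2 fold change, the median was 0.05 and 0 had an unadjusted edgeR p under 0.05. Over these 5 lists, the germline list and the named long noncoding RNAs, 77 genes were tested. By edgeR 0 passed, beside 0.897% of all tested genes, and 12 had an unadjusted p under 0.05. DESeq2 called 5 of the 77 and limma-voom 0. Over all 14609 tested genes, 325 were higher and 637 lower at an unadjusted edgeR p under 0.05, and DESeq2 called 117 higher and 209 lower. Whether any of these tissues contributed reads of the members was not tested.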

How the data were processed

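Polyadenylated RNA of 3 CKO and 3 control retina samples was sequenced, and sample titles gave the group and replicate number of each. The authors deposited whole-number read counts per gene symbol, and the submitters' processing notes name BWA 0.7.6a-r433, HTSeq 0.5.4p3, DESeq 2.13 and mm9, with no roles or settings. In the table, 4 lines without the full set of columns were skipped, and 1 repeated row was kept once. Differences were fitted with edgeR 4.0.16 under R 4.3.3 (filterByExpr with a minimum count of 10, TMM, glmQLFit and glmQLFTest, genotype only). Of 23441 genes, 14609 were tested. P-values were Benjamini-Hochberg adjusted over these 14609 genes, and 0.05 was the threshold. SE is the absolute log2 fold change over the square root of F. CPM uses TMM-scaled library sizes. The labels name no molecular identifiers and reads may be PCR copies, so Poisson and binomial intervals (95%) cover counting error only. The test was tried on simulated data. No libraries agreed within sampling noise (lowest chi-square per degree of freedom 5.77).

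The members and gene lists were chosen with earlier results of these data known. Named genes were the members, Thap11, the 5 counted genes on each side of a member in RefSeq order (GRCm38.p6; the nearest 3 a side with values), the 5 most similar profiles (log2 CPM, prior count 2), the called clone-named genes, the 3 with the next largest rise, and from each list its largest called gene or, with none called, the one with the highest mean CPM. The alternatives were DESeq2 1.42.0, limma-voom 3.58.1, other scalings and filters, a stricter threshold, the replicate number as a block and leaving out each library. GENCODE M21 supplied transcripts.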

Additional observations from a re-analysis of the deposited data

How the results depend on the processing

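Over 13 alternatives each, the fitted log2 fold change of 1700034P13Rik and of BC030307 kept its sign and stayed within the spread between replicates, except that 1700034P13Rik moved to 6.42 without control replicate 1 (5 of the 10 control reads); its range over the libraries left out was 5.85 to 6.42, and that of BC030307 was 3.21 to 3.66. The control level of 1700034P13Rik rests on 2 to 5 reads a library, which limits any fold change against it. The number of called genes depended on the test: the Wald test of DESeq2 gave 117 higher and 209 lower, among the clone-named genes 11 and 8. At an adjusted p threshold of 0.01, edgeR called 8 higher and 31 lower, among the clone-named genes 0 and 1 (36 and 32 at an unadjusted p under 0.05). With single libraries left out, higher calls ranged from 6 (CKO replicate 3 or control replicate 3) to 72 (control replicate 2), with 8 without CKO replicate 1, and lower calls from 10 (CKO replicate 3) to 147 (control replicate 2), with 33, 29 and 27 without CKO replicate 1, CKO replicate 2 and control replicate 3. Among clone-named genes they ranged from 0 to 4 higher and from 1 to 8 lower. The cause was not tested.

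Of the genes most like the members, Alppl2, Akp3 and Park2 stayed called under all alternatives run, and Abcd4 (adjusted p = 0.0621 without CKO replicate 3, 0.105 without control replicate 3), Vmn2r29 (0.0607 and 0.0637 without the same libraries) and Xrra1 (up to 0.0932, without CKO replicate 1, 2 or 3 or control replicate 3) lost the call. Of the 8 called clone-named genes, B230118H07Rik kept it under all 13. 1700029J07Rik and 4930529M08Rik lost it without any 1 of the 6 libraries, 2500004C02Rik without any but control replicate 2, and Gm5113, AI464131 and 4933404O12Rik without CKO replicate 1, 2 or 3 or control replicate 3. 1110004F10Rik lost it without any library but control replicate 2, under the other scalings and by limma-voom. Cryaa gained a call by DESeq2, with the replicate block and without CKO replicate 2. With a prior count of 0.5, chosen after seeing the data, 3 of the 5 most similar genes were shared for 1700034P13Rik and 4 of 5 for BC030307. The differences from 1700034P13Rik then stood at 0.848 for Alppl2 and 1.2 for Akp3, and Xcr1 and the lens list gene Gja3 entered its nearest 5. No neighbour was called under any alternative, and small changes turned sign: Vcpip1 to 0.02 and Sgk3 to 0.01 with library sizes alone, Mcmdc2 to -0.91 with limma-voom, and over the libraries left out Vcpip1 ranged from -0.15 to 0.06, Mybl1 from -0.27 to 0.09, Adhfe1 from -0.39 to 0.16, Sgk3 from -0.24 to 0.23, Mcmdc2 from -0.51 to 0.94 and Snhg6 from -0.21 to 0.38. Csf1r was 0.05 with library sizes alone (-0.08 to 0.04 over the libraries left out), and Miat was 0.07 with limma-voom, 0.06 with the replicate block and between -0.92 and 0.32 over the libraries left out. Same-numbered deviations correlated at 0.336, 0.107 and -0.008, and differently numbered ones at -0.253 to 0.201. These values do not settle whether replicate numbers pair the samples. With the replicate number as a block, 40 genes were higher and 113 lower, and the members stood at 6.03 and 3.39.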
